A study of Danio rerio with 24 samples.

Results

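Within the 3.75 nM rotenone group of a zebrafish liver RNA-seq study, 4 fish numbered 163, 165, 166 and 167 were compared with 5 fish numbered 189 to 193. These 9 livers, of 24 in the study, were chosen by the fish numbers in the sample titles, and the sets are called the 163 series and the 189 series here. All 9 were males of strain AB JxTu, aged 1 year, and carried the same stated treatment of rotenone, an inhibitor of mitochondrial complex I, at 3.75 nM. The labels give no other difference between the sets, so what the numbers stand for (a tank, a clutch, a day of dissection or another condition) is unknown. Every sign below is the 163 series minus the 189 series. The same split was followed in 9 other 1-year males at 37.5 nM rotenone, fish 173, 174, 175 and 177 against fish 198 to 202. The remaining 6 fish were 3 years old and received 37.5 nM. No untreated or vehicle fish were analysed here and the route and length of exposure are not given in the sources used here.

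The liver turns dietary glucose into fat through glycolysis, the pentose phosphate pathway and fatty acid synthase after feeding, and turns to autophagy, fatty acid oxidation and IGF-binding protein 1 during fasting. Misfolded proteins in the cytosol raise the Hsp90 and Hsp70 chaperones through heat shock factor, while misfolded proteins in the endoplasmic reticulum (ER) raise HSPA5 and its partners through the unfolded protein response. The gene groups below are ordered by these roles.

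Library totals were 24644663 to 31614079 counts in the 163 series and 27822628 to 40706711 in the 189 series (exact two-sided permutation p = 0.238, with 0.0159 the smallest p these group sizes allow). Levels are CPM, counts scaled to library size with TMM factors. All 17 hepatocyte markers were detected in every fish. Fish 189 stood apart from its own set. Its mean Spearman correlation with the 163 series over the genes tested was 0.925, against 0.892 with the other 189 series fish. On the component that separated the other fish it scored 22, near the 30.4 to 79.7 of the 163 series and far from the −76.2 to −50.1 of fish 190 to 193. Over the 3512 genes that differed when it was left out, it lay nearer to the 163 series for 64.3%. Left out in the same way, fish 190 and 165 lay nearer to the other set for 26.8% and 24.4% of genes. The remaining fish did so for 11.8% or less. Each share is over the genes called without that fish, which were as few as 17 without fish 166 or 167. Intestinal marker messages were high in fish 166, 190 and 192, with list scores of 4.53, 3.94 and 2.80 log2 units above the median of all 24 fish, against 0.53 or less in the other 6. Fish 190 also had a mean correlation of 0.859 with the 163 series and 0.872 with its own, the lowest of the 9 in both.

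**Figure D1:**
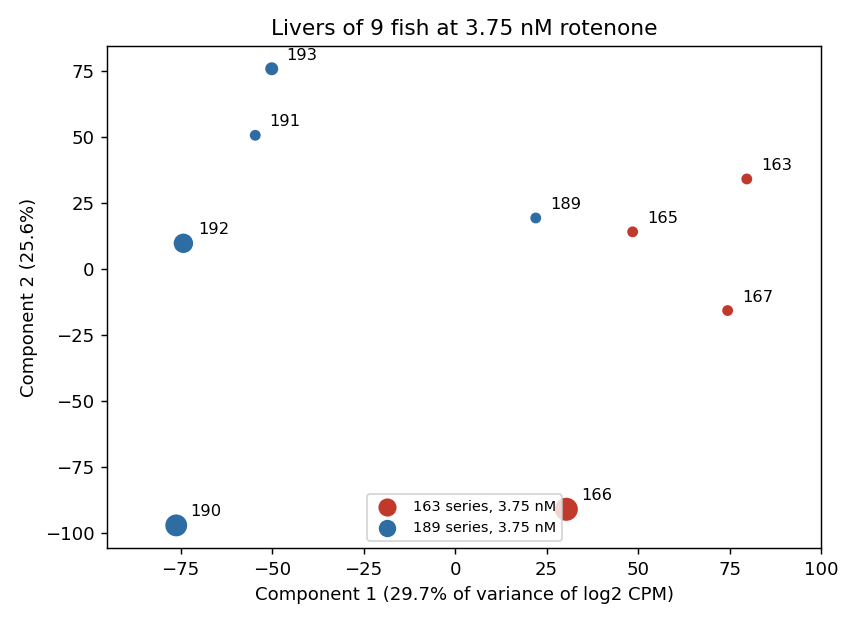
Scores of the 9 livers at 3.75 nM on the first components of log2 CPM, with 29.7% and 25.6% of the variance. Points are fish, coloured by number series and enlarged by intestinal marker score. Fish 189 lies beside the 163 series, and fish 166 and 190, both with high intestinal scores, lie at the bottom.

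Of 15842 genes tested with edgeR's quasi-likelihood test, 1885 (11.9%) passed an adjusted p of 0.05. Of these, 1055 (6.66% of all tested) were higher and 830 (5.24%) were lower in the 163 series. List counts given below for all 9 fish are to be read against these shares. The median log2 difference of all genes tested was −0.07. For 1795 genes (11.3%) all 4 fish of the 163 series lay above all 5 of the 189 series, and for 761 (4.8%) all 4 lay below. The counts depended on single fish. Without fish 189 the test called 3512 genes, of 15440 tested, with 12.1% of all genes higher and 10.6% lower. List counts given below without fish 189 are to be read against those shares. Fish 189 was set apart for its likeness to the 163 series in these same data. Results without it, p-values included, are therefore descriptions and no separate support. Without fish 163, 166 or 167 it called 136, 17 and 17. Without fish 191, 192 or 193 it called 461, 585 and 447, and without fish 165 it called 1114. DESeq2 called 3541 genes, and between 2266 and 4795 with a fish left out. Leaving out fish 166, 190 and 192 together, which left 3 fish in each set, edgeR called 3 genes and DESeq2 1746. In that edgeR fit no list below held a called member. With all 9 fish and the intestinal score as a covariate, edgeR called 1604 genes. All 1885 genes kept their sign in those of the 9 fits with a fish left out in which they were tested. They had been called on the same fish, so this is a description. Scaling by the library total alone called 1278 genes, of which 33.6% were higher in the 163 series, against 56.0% with TMM factors.

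Only 15 of the 1885 genes passed in each of the 9 fits with a fish left out. The 11 that were higher in the 163 series were 7 heat shock genes (hsp90aa1.1, HSP90AA1, HSPA2, hsp70.3, hsp70.1, dnajb1a and dnaja), FASN, the lipid droplet hydrolase gene ldah, the ubiquitin-conjugating enzyme UBE2K and the actin-nucleating complex subunit ARPC5L. The 4 that were lower were the globins HBE1 and hbaa2, the transcription factor foxp1b and PLEKHA5. ldah, UBE2K, ARPC5L, HBE1, foxp1b, PLEKHA5, hsp70.1 and the co-chaperones were named after their values were seen.

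The inducible cytosolic chaperones were far higher in the 163 series. HSP90AA1 (ENSDARG00000024746), the stress-inducible cytosolic Hsp90, stood at 307, 293, 147 and 121 CPM in fish 163, 165, 166 and 167 and at 8.07, 4.47, 5.88, 3.43 and 2.68 CPM in fish 189 to 193. The sets did not overlap, fish 189 lay with its own set, and the log2 difference was 5.37 ± 0.44 (SE, adjusted p = 0.00287). hsp70.3 (ENSDARG00000021924), an inducible Hsp70, was at 147, 113, 74.7 and 62.8 CPM against 1.74, 0.505, 0.840, 0.273 and 0.257 CPM. Its log2 difference was 6.99 ± 0.64 (adjusted p = 0.00428). In both genes the order of fish within the 163 series was the same, with fish 163 highest and fish 167 lowest.

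A related Hsp70 gene, HSPA2, was at 32.0, 31.8, 28.7 and 14.6 CPM against 0.152 to 0.840 CPM, a log2 difference of 5.77 ± 0.48 (adjusted p = 0.00287). The second Hsp90 row, hsp90aa1.1 (ENSDARG00000010478), was at 9.57, 4.79, 2.66 and 3.55 CPM against 0.110 to 0.156 CPM, where few reads were counted (5.10 ± 0.41, adjusted p = 0.00287). Inducible Hsp70 and Hsp90 genes have close copies, and how the counting divided reads between them is not given in the sources used here. Of 43 cytosolic heat shock genes tested, 23 were higher and 0 were lower, and the list median was 1.01. Without fish 189, 28 were higher.

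**Figure D2:**
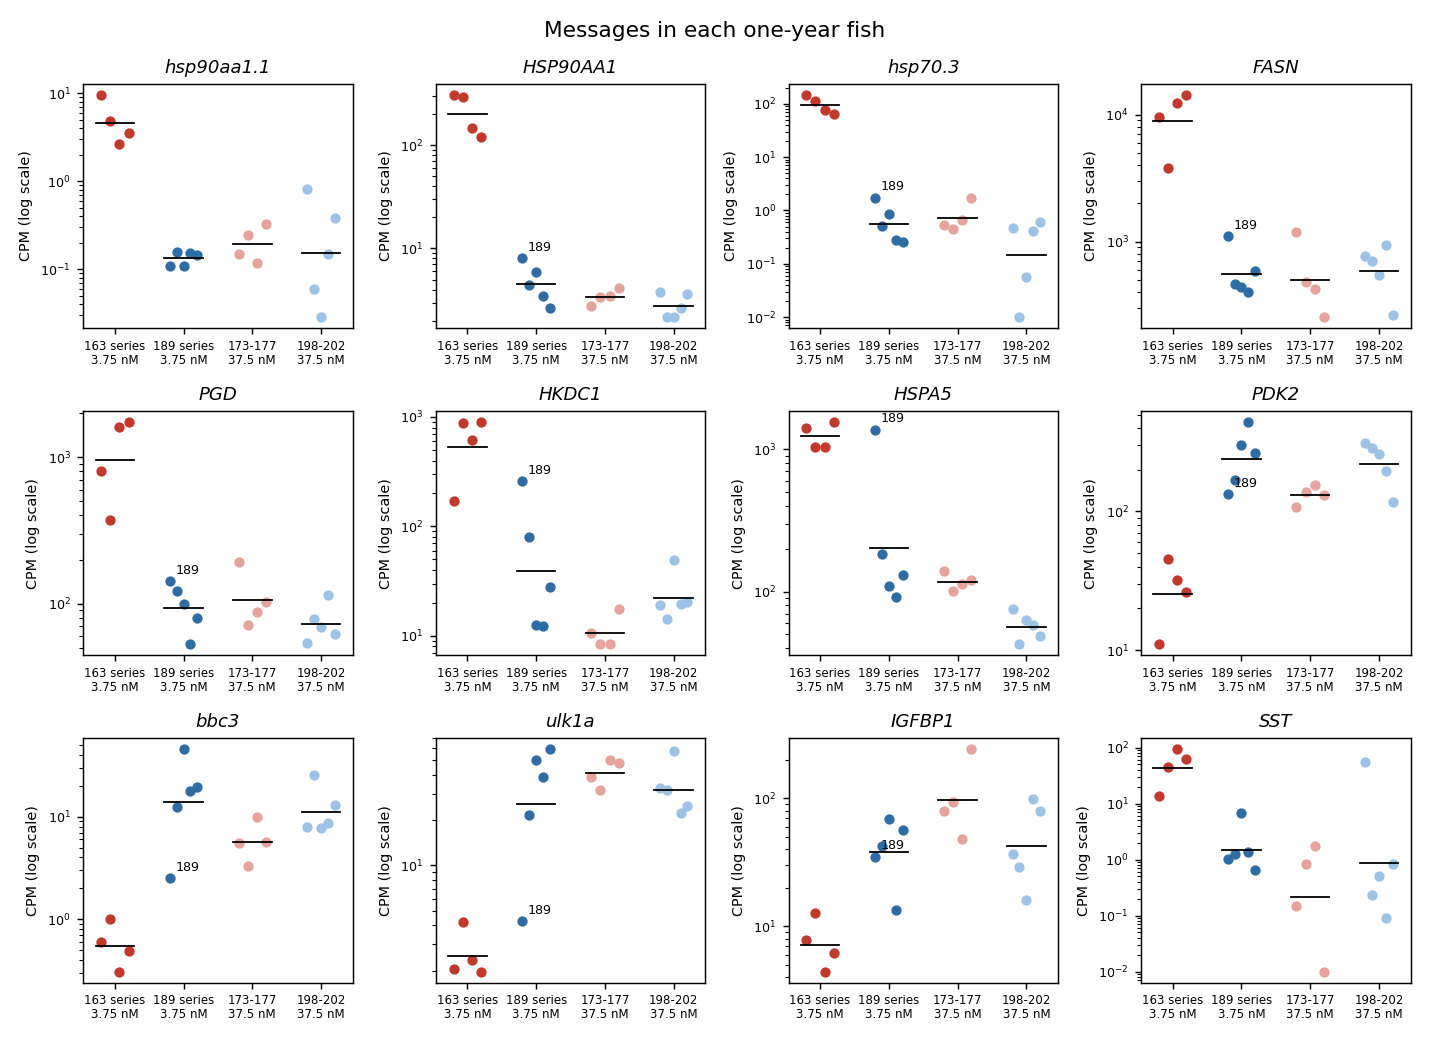
CPM on a log axis of 12 genes in each 1-year fish, in the 163 and 189 series at 3.75 nM and in fish 173 to 177 and 198 to 202 at 37.5 nM. Points are fish, bars are geometric means, and a value of 0 is drawn at the bottom of its axis. Fish 189 is marked in every panel except those of hsp90aa1.1 and SST, whether or not it stands apart. HSP90AA1 lay at 121 to 307 CPM in the 163 series and at 8.07 CPM or less in all other fish shown, whereas for HSPA5 fish 189 lay with the 163 series.

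In the list of mitochondrial chaperones and proteases 10 of 23 tested were higher as well, with 0 lower and a median of 0.53. Its counts without fish 189 were 12 higher and 2 lower. The chaperonin HSPD1 was at 488, 435, 363 and 344 CPM in the 163 series and at 161, 166, 79.7, 44.5 and 117 CPM in the 189 series (1.75 ± 0.35, adjusted p = 0.0220). Its partner HSPE1 was at 134 to 206 CPM against 23.0 to 68.0 CPM (1.63 ± 0.28, adjusted p = 0.0178). The import channel TOMM40 and the import receptor TOMM22 differed by 0.85 ± 0.14 and 1.4 ± 0.23 (adjusted p = 0.0155 and 0.0166), and the fish of the sets did not overlap in either.

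The ER group behaved differently in fish 189. HSPA5 (ENSDARG00000103846), the main ER Hsp70, was at 1412, 1037, 1046 and 1558 CPM in the 163 series. In the 189 series it was at 1375 CPM in fish 189 and at 184, 110, 92.1 and 130 CPM in fish 190 to 193. With fish 189 the difference was 1.67 ± 0.80 (adjusted p = 0.186), and without it 3.18 (adjusted p = 0.00176). The second value is a description, since fish 189 was left out for standing apart. Other members separated all 9 fish. XBP1, a transcription factor of the unfolded protein response, was at 413, 265, 364 and 282 CPM against 165, 104, 69.3, 81.3 and 98.2 CPM (1.59 ± 0.25, adjusted p = 0.0155). The ER co-chaperone DNAJB11 (1.39 ± 0.26, adjusted p = 0.0192) and SEL1L, part of ER-associated degradation (0.92 ± 0.19, adjusted p = 0.0222), were also higher. Of 48 ER genes tested, 14 were higher and 0 were lower, with a median of 0.78. Without fish 189, 24 were higher and 1 was lower.

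ATF4 targets and tRNA synthetases, which respond to amino acid shortage, were higher for 7 of 35, with 0 lower and a median of 0.40. Their counts without fish 189 were 8 higher and 2 lower. Asparagine synthetase, ASNS, was at 29.1 to 42.7 CPM against 9.79 to 24.3 CPM (1.15 ± 0.24, adjusted p = 0.0238). The mitochondrial folate enzyme ALDH1L2 differed by 1.74 ± 0.39 and the phenylalanyl-tRNA synthetase subunit FARSA by 0.70 ± 0.16 (adjusted p = 0.0267 and 0.0270).

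Translation factors and the proteasome were higher, while the ribosome itself was not. Of 47 translation factors 16 were higher and 0 lower (median 0.35). EIF5, which triggers GTP hydrolysis at the start codon, was at 302, 224, 290 and 318 CPM against 143, 140, 150, 130 and 134 CPM (0.93 ± 0.14, adjusted p = 0.0145). The scaffold EIF4G1 was at 336 to 434 CPM against 123 to 143 CPM in fish 190 to 193 and 250 CPM in fish 189 (1.21 ± 0.21, adjusted p = 0.0178). EIF4G2 (ENSDARG00000020377) differed by 1.26 ± 0.19 (adjusted p = 0.0155).

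Of 53 proteasome genes 15 were higher and 0 lower (median 0.45). The lid subunit PSMD12 was at 62.1 to 78.5 CPM against 22.3 to 37.2 CPM (1.29 ± 0.18, adjusted p = 0.0143), and PSMD8 differed by 0.82 ± 0.13 (adjusted p = 0.0155). None of 74 cytosolic ribosomal protein genes passed, with a median of −0.01. In ribosome biogenesis 1 of 68 was higher (nop16, 0.83 ± 0.22, adjusted p = 0.0446) and 2 were lower, RCL1 (−1.61 ± 0.36, adjusted p = 0.0270) and the helicase DDX21 (−1.22 ± 0.32, adjusted p = 0.0408). The nucleolar protein GNL3 did not pass (1.01 ± 0.30, adjusted p = 0.0555). Without fish 189 the counts in this list were 6 higher and 3 lower of 68, where 12.1% and 10.6% of all genes tested were called.

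Fatty acid synthesis and lipid droplets was the metabolic list with the most members higher, 11 of 32, with 2 lower and a median of 1.03. Its counts without fish 189 were 13 higher and 4 lower. FASN (ENSDARG00000087657), which builds palmitate, was at 9499, 3804, 12246 and 14312 CPM in fish 163, 165, 166 and 167 and at 1098, 459, 442, 403 and 589 CPM in fish 189 to 193. The sets did not overlap and the difference was 3.97 ± 0.45 (adjusted p = 0.00849). ACACA, which makes its substrate malonyl-CoA, was at 5287, 3618, 6252 and 9272 CPM against 837, 1188, 774, 706 and 1917 CPM (2.39 ± 0.37, adjusted p = 0.0155). The ACACA activator mid1ip1l was at 183, 62.4, 173 and 143 CPM against 24.1, 29.9, 15.8, 19.3 and 14.8 CPM (2.66 ± 0.33, adjusted p = 0.0143).

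In FASN, ACACA and mid1ip1l fish 165 was the lowest of the 163 series, yet above every fish of the other set. The acyl-CoA synthetase ACSBG2 was at 343, 144, 998 and 1504 CPM against 52.1, 45.8, 8.73, 9.15 and 6.20 CPM (4.86 ± 0.93, adjusted p = 0.0202). The nuclear receptor pparg, known in mammals for fat storage, was at 32.8 to 52.4 CPM against 11.4 to 22.9 CPM (1.46 ± 0.22, adjusted p = 0.0150).

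PGD (ENSDARG00000015343), the pentose phosphate enzyme that supplies NADPH for fat synthesis, was at 798, 374, 1592 and 1737 CPM against 142, 122, 99.8, 52.7 and 79.3 CPM (3.42 ± 0.48, adjusted p = 0.0143). In its list of pentose phosphate, nucleotide and polyamine synthesis 9 of 41 were higher and 1 was lower (median 0.52). The lower member was IMPDH1 (ENSDARG00000029524), an enzyme of guanine nucleotide synthesis, at 8.45, 11.3, 7.23 and 11.7 CPM against 13.3, 66.5, 133, 127 and 152 CPM (−3.45 ± 0.64, adjusted p = 0.0191). Fish 189 lay close to the 163 series for IMPDH1.

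In cholesterol synthesis and uptake 3 of 29 were higher and 0 lower (median 0.64), and without fish 189 the counts were 7 and 1. Among the called members were ACAT2 (1.56 ± 0.34, adjusted p = 0.0259) and NSDHL (1.24 ± 0.33, adjusted p = 0.0417). The mevalonate kinase MVK was at 6.71 to 33.7 CPM against 3.65 to 20.4 CPM and did not pass (0.96 ± 0.56, adjusted p = 0.270). MTTP, which loads lipid onto lipoproteins, was higher in all 4 fish than in the 5 but did not pass (0.87 ± 0.25, adjusted p = 0.0541).

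The hexokinase relative HKDC1 was at 169, 879, 619 and 901 CPM against 258, 79.9, 12.5, 12.2 and 27.6 CPM (2.99 ± 0.96, adjusted p = 0.0719, and 4.18 without fish 189, adjusted p = 0.0104). Fish 189 had the highest HKDC1 level of its set, above that of fish 163. PCK1, the gluconeogenic enzyme raised by fasting, was at 22.6 CPM in fish 189, the lowest of the 9, and at 583 to 2113 CPM in the 163 series and 813 to 5322 CPM in fish 190 to 193 (−0.75 ± 1.05, adjusted p = 0.667). GPI (ENSDARG00000012987) and the liver glycogen synthase GYS2 were higher by 0.97 ± 0.18 and 0.88 ± 0.23 (adjusted p = 0.0197 and 0.0416). In all, 3 of 45 glycolysis and gluconeogenesis genes were higher and 0 lower (median 0.24), near the 6.66% higher over all genes. Without fish 189, 5 were higher and 1 lower, where 12.1% and 10.6% of all genes were called.

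A subunit of pyruvate dehydrogenase and its kinase differed in opposite directions. DLAT, its core subunit, was at 81.2, 78.2, 128 and 162 CPM against 30.3, 38.3, 25.1, 22.9 and 31.3 CPM (1.83 ± 0.26, adjusted p = 0.0143). PDK2 (ENSDARG00000020876), a kinase that switches the enzyme off, was at 11, 45.6, 32.3 and 26.1 CPM against 133, 170, 304, 443 and 265 CPM (−3.27 ± 0.52, adjusted p = 0.0155). Of 25 TCA cycle genes 6 were higher and 0 lower (median 0.44), among them SDHA (0.52 ± 0.13, adjusted p = 0.0372).

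Rotenone binds complex I, but both sets carried the same stated dose, so this split does not test an effect of rotenone. Of 38 nuclear complex I genes 2 were higher and 0 lower (median 0.12), against 6.66% higher and 5.24% lower over all genes. NDUFA8 was at 49.0 to 58.6 CPM against 32.7 to 39.5 CPM (0.47 ± 0.12, adjusted p = 0.0341). In complexes II to V, 6 of 43 were higher and 1 lower (median 0.26). Cytochrome c, cycsb, was at 454, 275, 474 and 408 CPM against 155, 170, 56.3, 71.4 and 91.7 CPM (1.8 ± 0.34, adjusted p = 0.0200).

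None of the 13 mitochondrially encoded messages passed, though the difference was below 0 in all 13 (median −0.44). MT-ATP6 was at 4314 to 5757 CPM against 5766 to 7444 CPM (−0.51 ± 0.15, adjusted p = 0.0600), and MT-CYB differed by −0.56 ± 0.18 (adjusted p = 0.0668). Without fish 189, 6 of the 13 were lower.

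In the list of beta oxidation, ketone bodies and peroxisome 3 of 37 were lower and 1 higher (median −0.18), against 5.24% lower, 6.66% higher and a median of −0.07 over all genes. Without fish 189, 6 were lower. The carnitine palmitoyltransferase cpt1ab, the entry step of mitochondrial oxidation, was at 33.9, 46.1, 51.4 and 33.2 CPM against 59.5, 82.8, 137, 125 and 186 CPM (−1.61 ± 0.35, adjusted p = 0.0257). The fasting-response receptor pparaa differed by −0.98 ± 0.25 (adjusted p = 0.0375).

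Antioxidant and glutathione genes were higher for 6 of 35, with 0 lower and a median of 0.27. The peroxiredoxin prdx1 was at 42.2, 102, 289 and 309 CPM against 9.37, 28, 15.5, 4.19 and 3.59 CPM (3.85 ± 0.79, adjusted p = 0.0227). Glutathione reductase, GSR, was at 23.9 to 75.7 CPM against 10.6 to 19.6 CPM (1.54 ± 0.38, adjusted p = 0.0353), and prdx6 differed by 0.76 ± 0.16 (adjusted p = 0.0227). Both prdx1 and GSR were higher in fish 166 and 167 than in fish 163 and 165. Of 28 xenobiotic enzymes 1 was higher, the sulfotransferase sult1st1 at 321, 152, 251 and 15.7 CPM against 19.4 to 43.0 CPM, so that fish 167 fell below the 189 series (2.47 ± 0.66, adjusted p = 0.0426). Without fish 189, 4 of 28 xenobiotic enzymes were higher and 2 lower, where 12.1% and 10.6% of all genes were called.

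In the list of hypoxia and lactate 4 of 32 were higher and 2 lower (median −0.26), and without fish 189 the counts were 4 and 6. HIF1A was at 185, 148, 178 and 184 CPM against 90.2 to 108 CPM (0.73 ± 0.13, adjusted p = 0.0178), and an oxygen-sensing hydroxylase row EGLN1 (ENSDARG00000038996) differed by 2.06 ± 0.41 (adjusted p = 0.0206). In iron and heme 5 of 28 were higher and 1 lower (median 0.15). The heme synthesis enzyme CPOX was at 38.4 to 66.4 CPM against 5.20 to 23.8 CPM (2.13 ± 0.41, adjusted p = 0.0200), and the iron exporter SLC40A1 was the lower member (−1.55 ± 0.34, adjusted p = 0.0257). Hepcidin, hamp, which removes that exporter, was at 94.6 to 346 CPM against 2.80 to 112 CPM and did not pass (2.32 ± 0.92, adjusted p = 0.123).

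Several autophagy genes were lower in the 163 series. ulk1a (ENSDARG00000062518), a kinase that starts autophagy, was at 2.06, 4.21, 2.35 and 1.97 CPM against 4.27 CPM in fish 189 and 21.8 to 59.3 CPM in fish 190 to 193 (−3.81 ± 0.72, adjusted p = 0.0197). Its relative ULK1 was at 0.625 to 1.79 CPM against 2.57, 9.06, 10.2, 13.4 and 16.9 CPM (−3.23 ± 0.56, adjusted p = 0.0178). Fish 189 was the lowest of its set for both kinases, just above the 163 series. ATG2A, which feeds lipid to the growing autophagosome, was at 9.48 to 14.7 CPM against 17.8 to 46.2 CPM (−1.68 ± 0.30, adjusted p = 0.0178), and the lysosomal calcium channel MCOLN1 (ENSDARG00000002285) differed by −1.22 ± 0.23 (adjusted p = 0.0191). Of 58 lysosome and autophagy genes 10 were lower and 0 higher (median −0.36), against 5.24% lower and 6.66% higher over all genes. Their counts without fish 189 were 14 lower and 1 higher.

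Growth arrest and insulin-linked genes were lower too. bbc3 (ENSDARG00000069282), the pro-apoptotic Puma, was at 0.598, 1.00, 0.309 and 0.494 CPM against 2.51, 12.5, 45.5, 18 and 19.5 CPM (−5.14 ± 0.83, adjusted p = 0.0155). In the p53 and senescence list 5 of 26 were lower and 0 higher (median −0.54). Without fish 189, 10 of 24 were lower, against 10.6% of all genes tested. SESN1, a p53 target that restrains mTORC1, differed by −1.60 ± 0.37 (adjusted p = 0.0285), with fish 189 at 37.0 CPM among the 18.6 to 44.9 CPM of the 163 series. The survival gene mcl1a differed by −0.58 ± 0.14 (adjusted p = 0.0300).

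IGFBP1 (ENSDARG00000099351), an IGF-binding protein that insulin suppresses, was at 7.78, 12.6, 4.45 and 6.22 CPM against 35.0, 42.6, 69.4, 13.4 and 56.8 CPM (−2.58 ± 0.50, adjusted p = 0.0203). Its paralog igfbp1b was at 0.132 to 0.958 CPM against 2.16 to 9.24 CPM (−3.37 ± 0.66, adjusted p = 0.0204). Fish 189 lay within its own set for both. The deiodinase DIO1, which activates thyroid hormone, differed by −1.19 ± 0.24 (adjusted p = 0.0221), and IGFALS, the carrier subunit of circulating IGF, did not pass (−1.50 ± 0.42, adjusted p = 0.0507). In the list of growth hormone, insulin and IGF 7 of 39 were lower and 1 higher (median −0.55). Without fish 189, 15 of 39 were lower, against 10.6% of all genes tested.

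The 12 genes with the most negative differences among those with no overlap and at least 4 CPM on average included ADGRL2, bbc3, CALCOCO1, ulk1a, tmem176l.4, PDPK1, znrf2a, SNX20, TCP11L2, tsnare1 and IMPDH1, at −5.84 to −3.45. CALCOCO1 (ENSDARG00000036695), a coiled-coil coactivator and autophagy receptor, was at 2.88, 5.0, 3.37 and 2.96 CPM against 8.71, 40.9, 80.5, 49.98 and 87.0 CPM (−4.01 ± 0.64, adjusted p = 0.0155). PDPK1 (ENSDARG00000062304), the kinase that activates Akt, was at 0.428 to 1.29 CPM against 1.32, 10.2, 15.2, 13.9 and 16.1 CPM (−3.73 ± 0.73, adjusted p = 0.0203). In CALCOCO1 and PDPK1 fish 189 held a level between the 163 series and fish 190 to 193. The size for tmem176l.4 was −3.81 ± 1.06 (adjusted p = 0.0476) and ran from −5.72 to −3.06 as single fish were left out, with −5.72 without fish 165, which at 2.04 CPM was the highest of its set.

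Immediate early and clock genes gave mixed results. Of 35 immediate early genes 1 was lower, FOS, at 0.866 to 2.42 CPM against 1.36 to 14.6 CPM (−2.34 ± 0.63, adjusted p = 0.0441). Without fish 189, 7 of 34 were lower, against 10.6% of all genes tested. Of 39 clock genes 3 were higher and 2 lower (median −0.39), near the 6.66% and 5.24% over all genes. Without fish 189 the counts were 3 and 11, where 12.1% and 10.6% of all genes were called. The higher members were bmal2, a positive arm gene (2.21 ± 0.40, adjusted p = 0.0186), the repressor NFIL3 (1.79 ± 0.42, adjusted p = 0.0306) and rorcb (1.66 ± 0.40, adjusted p = 0.0320). Fish 167 had the highest level of all 3 among the 9 fish, at 22.2, 30.0 and 109 CPM.

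The named repressor genes did not pass, with PER2 at 0.14 ± 0.27 (adjusted p = 0.759), NR1D1 at −0.32 ± 0.60 (adjusted p = 0.751), BHLHE41 at −1.23 ± 0.37 (adjusted p = 0.0596) and nfil3-5 at 1.02 ± 0.51 (adjusted p = 0.206). The 2 rows with the symbol PER1 stood at 0.38 ± 0.26 (ENSDARG00000012499) and −1.58 ± 0.59 (ENSDARG00000056885), with adjusted p = 0.349 and 0.107. FKBP5, a glucocorticoid target, was at 551, 585, 553 and 332 CPM against 65.2 CPM in fish 189 and 685, 1509, 955 and 1222 CPM in fish 190 to 193 (−0.91 ± 0.67, adjusted p = 0.385, and −1.22 without fish 189, adjusted p = 0.0226).

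**Figure D3:**
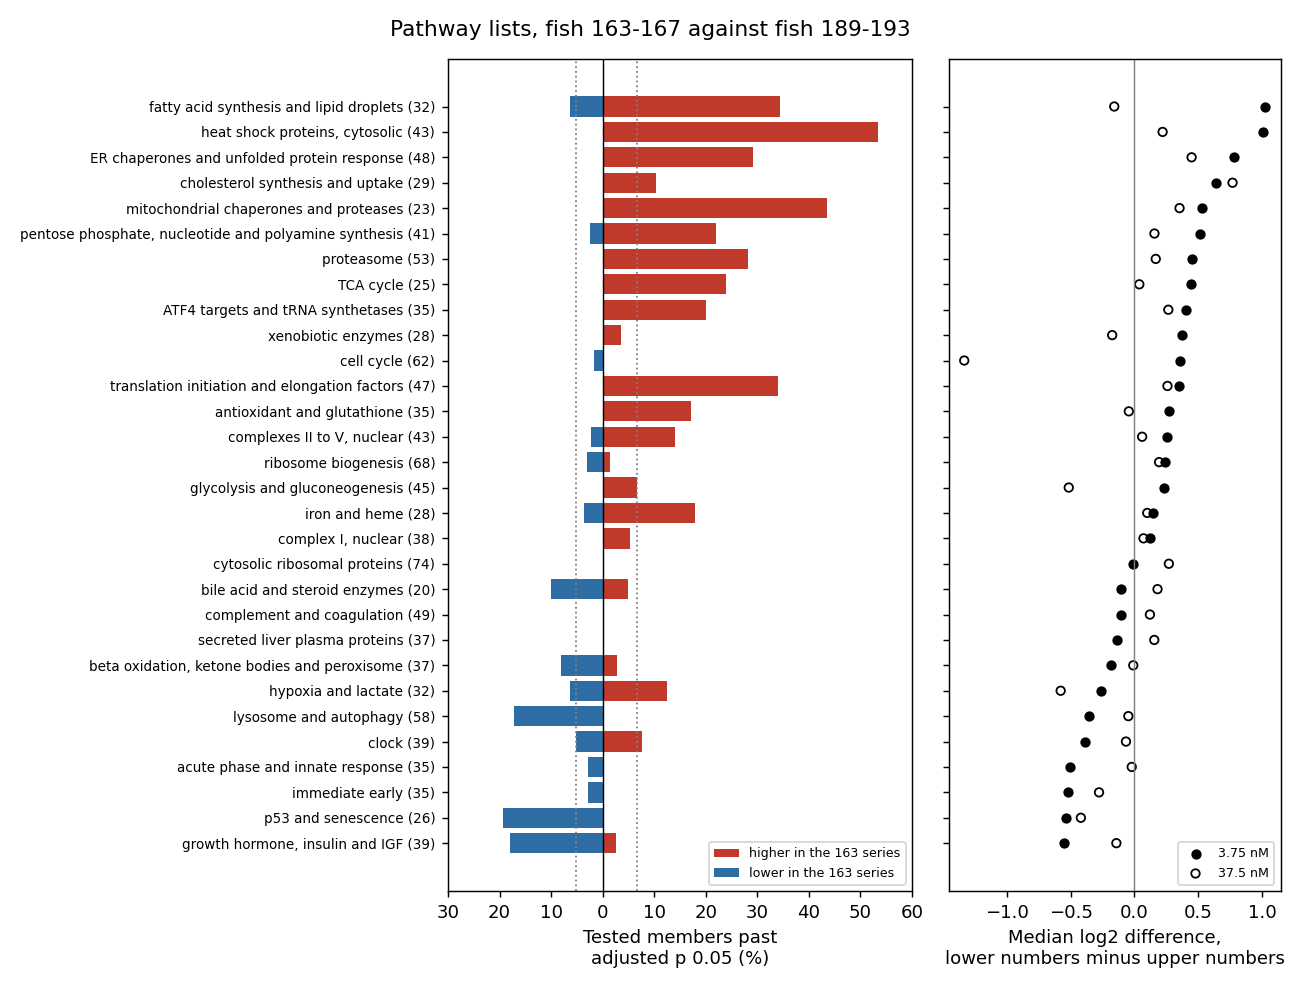
Pathway lists with at least 20 genes tested, in order of their median at 3.75 nM, with the number tested in parentheses. Bars give the share of tested members past an adjusted p of 0.05 that were higher (red) or lower (blue) in the 163 series, and dotted lines give the shares over all genes, 6.66% and 5.24%. Filled points are list medians at 3.75 nM and open points are medians of the same split at 37.5 nM. Heat shock genes reach 1.01 at 3.75 nM.

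General liver output differed little. None of 17 hepatocyte markers, 37 secreted plasma proteins and 49 complement and coagulation genes passed, with medians of −0.12, −0.14 and −0.10. Transferrin, tfa, was at 37898 to 72525 CPM against 28818 to 46899 CPM (0.19 ± 0.25, adjusted p = 0.644), and serpina1 differed by 0.49 ± 0.19 (adjusted p = 0.118). Of 20 bile acid and steroid enzymes 1 was higher (hsd11b1la, 1.07 ± 0.24, adjusted p = 0.0270) and 2 lower (median −0.10). CYP7A1, the rate-limiting enzyme of bile acid synthesis, was at 0.337, 2.33, 235 and 22.9 CPM against 8.64, 0.253, 0.0731, 113 and 0.293 CPM, so that the sets fully overlapped (1.38 ± 2.09, adjusted p = 0.691).

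Of 62 cell cycle genes 1 was lower and 0 higher, with MCM2, MCM5 and mki67 at 1.51 ± 0.98, 0.84 ± 0.47 and −1.0 ± 1.1 (adjusted p = 0.324, 0.252 and 0.568). Of 35 acute phase and innate genes 1 was lower and 0 higher (median −0.51), against 5.24% lower over all genes. In this list 4 were lower without fish 189, where 10.6% of all genes were called lower. Among 7 estrogen response genes 0 passed, and the yolk precursor vtg1, a marker of estrogen action, was at 2.43 CPM or less in all 9 males.

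Pancreatic tissue lies along the liver and intestine in zebrafish, and its messages also differed. Of 13 endocrine pancreas markers 6 were higher and 0 lower, with a median of 3.52. The somatostatin gene SST, named for its size and not a member of that list, was at 13.8, 45.1, 94.0 and 61.4 CPM against 1.03, 1.24, 6.76, 1.34 and 0.660 CPM (4.53 ± 0.84, adjusted p = 0.0191). The listed rows sst1.2 and sst2 differed by 4.89 ± 0.86 and 4.56 ± 0.94 (adjusted p = 0.0178 and 0.0227), and glucagon, GCG, was at 2.65, 21.5, 47.1 and 21.6 CPM against 0 to 1.21 CPM (5.63 ± 1.05, adjusted p = 0.0192). The summed level of the list was 104 to 739 CPM in the 163 series and 2.49 to 50.8 CPM in the 189 series.

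None of 22 exocrine pancreas markers passed (median 1.07). Their summed level was 3756 to 22565 CPM against 130 to 28641 CPM. The carboxypeptidase CPA1 (ENSDARG00000030915) was at 409, 405, 420 and 56.9 CPM against 52.9, 338, 14.7, 18.5 and 1.03 CPM. In the 163 series fish 167 was low for CPA1 while its SST level of 61.4 CPM was the second highest, so the exocrine and endocrine messages did not keep 1 ratio. In bulk liver, fewer cells of a type and less RNA per cell cannot be told apart.

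Intestinal markers did not separate the sets, with 0 of 27 higher, 1 lower and a median of −0.01, and a summed level of 3256 to 16396 CPM against 3795 to 12091 CPM. The lower member, DAB2, was at 14.9 to 27.8 CPM in the 163 series, 14.2 CPM in fish 189 and 112 to 216 CPM in fish 190 to 193 (−2.64 ± 0.65, adjusted p = 0.0343), whereas the amino acid transporter row SLC6A19 (ENSDARG00000056719) rested on fish 190 at 145 CPM (−5.95 ± 2.00, adjusted p = 0.0802, and −2.39 without fish 190). Of 18 erythrocyte markers 2 were lower. hbaa2, a globin with close copies, was at 0.224, 0.792, 0.371 and 0.526 CPM against 4.05, 4.55, 4.27, 4.41 and 4.40 CPM (−3.26 ± 0.36, adjusted p = 0.00849), and hbaa1 at 18.8 to 30.7 CPM against 37.9 to 56.2 CPM (−1.01 ± 0.19, adjusted p = 0.0197). The summed erythrocyte level overlapped, at 172 to 296 CPM against 216 to 232 CPM.

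Lymphocyte messages leaned lower. All 16 tested T and NK cell markers had a difference below 0 (median −1.08), as had 8589 of all 15842 genes tested. Only 1 passed, the interleukin receptor il2rb at 1.12 to 2.1 CPM against 2.34 to 5.83 CPM (−1.41 ± 0.36, adjusted p = 0.0372). The summed level of the T and NK list was low, at 14.4 to 29.0 CPM against 30.0 to 58.4 CPM. Of 11 B cell markers 1 was higher and 2 lower (median −1.17). The B cell list scores did not overlap, at −0.997 to −0.376 against −0.129 to 0.720, but the summed levels did, at 410 to 653 CPM against 374 to 929 CPM. Of 19 stellate and fibroblast markers 1 was lower (median −0.78), and COL1A1 at −2.43 ± 1.1 (adjusted p = 0.166) rested on fish 192 at 310 CPM, with −0.40 without it. No marker passed among 18 macrophage, 13 neutrophil, 11 biliary, 15 thrombocyte and 3 muscle markers tested. Of 29 muscle marker rows only these 3 were tested. Higher were 1 of 24 endothelial and 1 of 9 adipose markers, against 6.66% over all genes. Lower were 1 of 10 kidney and 1 of 4 testis markers, against 5.24% over all genes. The endothelial receptor kdrl differed by 0.10 ± 0.18 (adjusted p = 0.747). The chemokine ccl39a.10 was among the 12 most positive genes, at 19.1, 18, 14 and 26.1 CPM against 0.0733 to 2.1 CPM (3.79 ± 0.68, adjusted p = 0.0186). The part of cell content in the gene groups above was not tested.

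**Figure D4:**
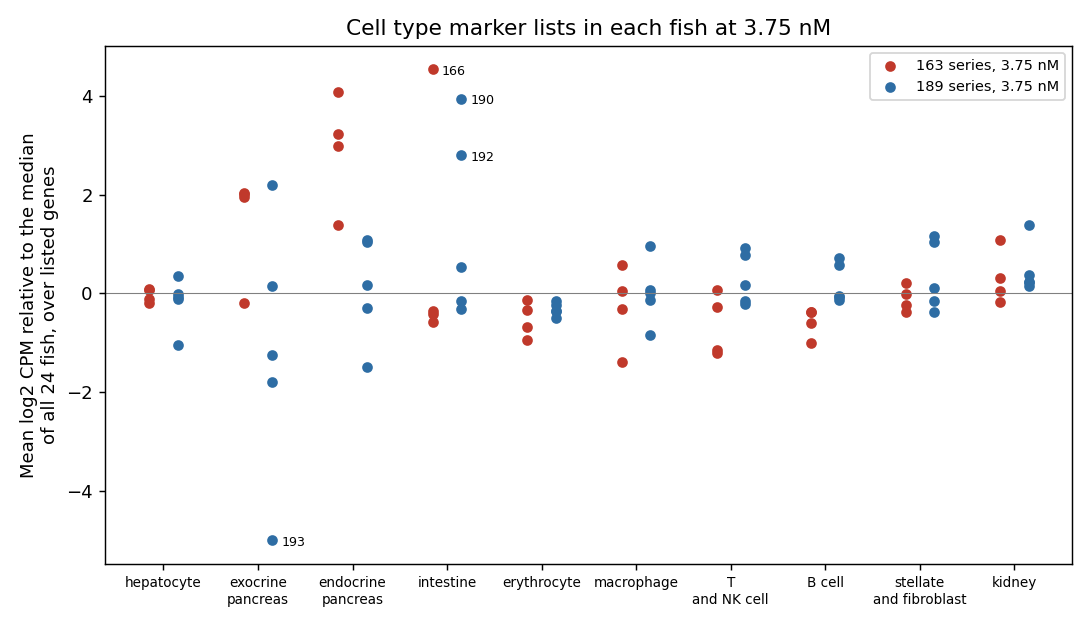
Marker list scores of the 9 fish at 3.75 nM, each the mean over the listed genes of log2 CPM minus the median of all 24 fish. Points are fish, with the 163 series in red and the 189 series in blue. Endocrine pancreas scores are higher and B cell scores lower in the 163 series, with no overlap between the sets in either. The intestinal scores of fish 166, 190 and 192 stand above the other 6.

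The same number split gave fewer called genes among fish at 37.5 nM, by a margin that depended on the test. Of 15958 genes tested there, 5 (0.0313%) passed with edgeR: MYH10, ccdc141 and herc7 were higher and FAM13A and HDAC4 lower in the lower-numbered fish. At an unadjusted p below 0.05 there were 3266 genes at 37.5 nM and 4956 at 3.75 nM. DESeq2 and voom called 1641 and 438 at 37.5 nM, against 3541 and 4621 at 3.75 nM. The number of edgeR calls there went from 0 without fish 174 or 177 to 72 without fish 200, with 1, 2, 16 and 57 without fish 198, 201, 202 and 199. These fish share no library with the 3.75 nM comparison. FAM13A was the only gene that passed at both doses, at −2.80 (adjusted p = 0.0335) and −2.11 ± 0.18 (adjusted p = 0.0108), in the same direction.

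Of the 1885 genes, 1871 were tested at 37.5 nM and 62.9% had the same sign, against 60.7% of the 15451 genes tested at both doses. Their median absolute log2 difference was 1.15 at 3.75 nM, where they were selected, and 0.257 at 37.5 nM, against 0.487 and 0.309 over all 15451. The difference between the doses was tested with an interaction term, which passed for 1089 of 17217 genes (6.33%) and for 719 of the 1885. Since the 1885 had been chosen on their size at 3.75 nM, the 719 is a description.

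**Figure D5:**
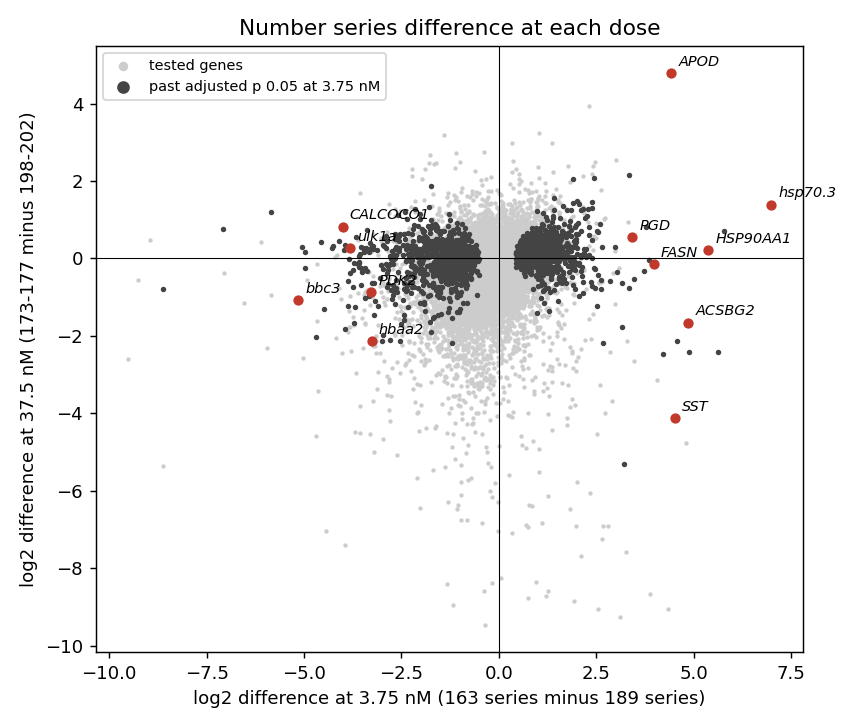
Log2 differences of the number split at 3.75 nM (horizontal) and at 37.5 nM (vertical) for genes tested at both doses, with those past an adjusted p of 0.05 at 3.75 nM in dark grey and 12 named genes in red. The dark points were selected on the horizontal axis, where their median absolute difference is 1.15, against 0.257 on the vertical axis. Over all genes tested at both doses the values are 0.487 and 0.309. APOD lies far from 0 on both axes.

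The difference in the inducible chaperones was smaller at 37.5 nM. HSP90AA1 was at 2.77 to 4.11 CPM in fish 173 to 177 and 2.16 to 3.80 CPM in fish 198 to 202, a log2 difference of 0.22 ± 0.22 (adjusted p = 0.597), and its interaction was −5.07 (adjusted p = 0.000165). hsp70.3 was at 1.71 CPM or less in all 9 fish at 37.5 nM (interaction −5.52, adjusted p = 0.00904). A called interaction was below 0 for 11 of 44 heat shock genes and above 0 for none, against 296 below and 777 above of 15842 genes. FASN was at 254 to 1196 CPM against 264 to 939 CPM at 37.5 nM (−0.15 ± 0.48, adjusted p = 0.881, interaction −4.03, adjusted p = 0.0056). PGD, DLAT and PDK2 gave interactions of −2.78, −1.95 and 2.49 (adjusted p = 0.0145, 0.00636 and 0.0195).

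For ulk1a, bbc3 and IGFBP1, which were lower in the 163 series, every 1-year fish at 37.5 nM lay above the 163 series. ulk1a was at 31.8 to 49.8 CPM against 22.2 to 57.2 CPM there (interaction 4.17, adjusted p = 0.0065), and bbc3 at 3.32 to 9.83 CPM against 7.74 to 25.4 CPM (interaction 4.13, adjusted p = 0.0146). IGFBP1 was at 48.1 to 242 CPM against 16.1 to 99.4 CPM (interaction 3.77, adjusted p = 0.0151). For 10 of 58 lysosome and autophagy genes a called interaction was above 0 and for none below, against 777 above and 296 below of 15842 genes.

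For the endocrine pancreas markers the 37.5 nM values rested on fish 198. SST was at 0.150, 0.830, 1.75 and 0 CPM in fish 173 to 177 and at 56.3 CPM in fish 198, against 0.0889 to 0.835 CPM in fish 199 to 202. The summed level of the list was 423 CPM in fish 198 and 1.03 to 65.0 CPM in the other 8. The list median at 37.5 nM was −2.41 over 8 genes tested and 0.71 without fish 198. The SST difference there was −4.13 (adjusted p = 0.297) and 0.64 without fish 198 (adjusted p = 0.801). Its interaction was −8.53 (adjusted p = 0.0414) and −3.81 without fish 198 (adjusted p = 0.133). The call was kept in 9 of the 18 fits with a fish left out, and fish 198 moved the value most.

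HSPA5 and HSPD1 had differences of the same sign at both doses, unlike TOMM22 (−0.02 at 37.5 nM, interaction −1.33, adjusted p = 0.0110). HSPA5 was at 100 to 139 CPM against 42.5 to 76.0 CPM at 37.5 nM (1.00 ± 0.19, adjusted p = 0.0776), and HSPD1 at 68.0 to 107 CPM against 25.9 to 44.5 CPM (1.25 ± 0.19, adjusted p = 0.0594). The sets did not overlap for either gene at 37.5 nM, though neither passed. Their interactions were −0.58 and −0.43 (adjusted p = 0.741 and 0.581). The HSPA5 value includes fish 189, at 1375 CPM against 92.1 to 184 CPM in fish 190 to 193. Without fish 189 the HSPA5 difference at 3.75 nM was larger, as given above. Its interaction therefore does not show that HSPA5 differed alike at both doses. HSPA5 stood at 1037 to 1558 CPM in the lower-numbered fish at 3.75 nM, above every 1-year fish at 37.5 nM. APOD (ENSDARG00000060350), an apolipoprotein, was at 154, 78.8, 70.4 and 9.08 CPM against 0.147 to 7.45 CPM at 3.75 nM (4.42 ± 1.05, adjusted p = 0.0316) and differed by 4.78 ± 1.17 at 37.5 nM (adjusted p = 0.109). The median of the cholesterol list was 0.64 at 3.75 nM and 0.77 at 37.5 nM, with 0 genes called at 37.5 nM, where 0 members of any list passed.

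Along an axis on which the 189 series mean is 0 and the 163 series mean is 1, computed over the 1885 genes, every fish at 37.5 nM had a median position near or below 0. The range was −0.12 to −0.06 in fish 173 to 177 and −0.22 to −0.13 in fish 198 to 202, and −0.33 to −0.02 in the 3-year fish. The share of genes for which a fish at 37.5 nM lay nearer to the 163 series was 3.66% to 13.4% at 1 year and 5.94% to 16.5% at 3 years. The mean at 0 includes fish 189, which lay nearer to the 163 series for 64.3% of the genes called without it. A position below 0 therefore need not lie beyond the other fish of the 189 series. The axis was drawn over genes chosen for separating these 9 fish, so the positions are a description. The doses were deposited as separate count tables, so dose and table cannot be told apart. Since the labels do not say what separates the numbers, the number series and any unstated condition, batch or handling cannot be told apart either.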

How the data were processed

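Liver RNA of 24 male zebrafish, 1 per library, was sequenced after preparation with the TruSeq RNA v2 kit, per the labels' protocols. The deposited values are raw counts per gene that the authors made from CASAVA 1.8.2 base calls with STAR 2.4.1d and featureCounts 1.4.6-p4 on GRCz10, per the submitters' processing notes. The strand setting and the annotation are not given in the sources used here, so overlapping genes on opposite strands may share reads. Tables of normalized expression also deposited were not used. Counts came in 2 tables, which were joined on gene identifier into 32105 rows, of which 26269 had a symbol in the reference table. Every sample column was mapped by its title.

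Counts were filtered with filterByExpr, scaled with TMM factors and tested two-sidedly in R 4.3.3 (edgeR 4.0.16, quasi-likelihood F test), with Benjamini-Hochberg adjustment over all genes tested and a threshold of 0.05. Each number series comparison used the 9 fish of its dose. The interaction used the 18 fish aged 1 year. The SE is the absolute log2 difference divided by the square root of F. CPM used TMM factors over all 24 libraries. The biological coefficient of variation was 0.526 at 3.75 nM and 0.468 at 37.5 nM. Alternatives were other scaling factors and filters, DESeq2 1.42.0, voom of limma 3.58.1 with quality weights, a fit over the 18 fish, the intestinal score as a covariate, and fits without single fish or sets of fish. Fits without fish 189 and 190 together and DESeq2 fits without fish were added after the data were seen. The test was also run on simulated counts in which the fish of a set were drawn alike. That run does not cover single fish that stand apart or have high intestinal scores, as in these data.

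The members and the 49 gene lists (32 of pathways, 17 of cell types) were chosen with earlier results of these data known, so list counts are descriptions. Of 1754 list entries 1635 matched a gene row. Genes were named by rule: the 12 most positive and 12 most negative differences past the threshold with no overlap between the sets and an average level of 4 CPM or more, then in each list up to 3 genes of lowest p, and a preset list of stress, metabolic and clock genes. Some genes the rule picked are not reported here. No pair of replicates repeated another (lowest chi-square per gene 89.3). Nothing states that the fish came from separate tanks, so p-values measure the spread between these samples only.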

Additional observations from a re-analysis of the deposited data

Results flagged for a closer look

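A fish far from the rest of its set was looked for with Dixon's test in 254 sets of values, and 26 were found, against about 5% by chance. In the 189 series, fish 189 accounted for 7 of the 11 such values. It was high for HSPA5 (10.43 log2 CPM, the other 4 at 7.53 or less) and EIF4G1 (7.96). It was low for PDPK1 (0.43), TCP11L2 (4.48), SESN1 (5.21), DAB2 (3.83) and FKBP5 (6.03). Fish 192 was high for tmem176l.4 (4.43) and low for HSPE1 (4.52), and fish 190 was low for serpina1 (11.28) and had a high kidney marker score (1.38).

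In the 163 series, fish 167 was low for HSPA2 (3.87), RCL1 (2.91), CPA1 (5.83), SLC6A19 (−1.95), FKBP5 (8.38) and the PER1 row ENSDARG00000056885 (0.90), and had the lowest exocrine pancreas score (−0.19, the other 3 at 1.95 to 2.03). Fish 166 was high for il2rb (1.09) and for the intestine (4.53) and muscle (3.19) marker scores. Fish 165 had the smallest library (24644700 counts to 6 digits), was high for TCP11L2 (4.04) and low for HIF1A (7.21). Fish 163 was high for tfa (16.15) and vtg1 (1.3).

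The number split differed between the doses for 42 of the 109 described genes by the interaction test, against 6.33% of all genes tested. Many of these genes were named for their values at 3.75 nM, which the test uses again, so the 42 is a description. The interaction is given as the difference at 37.5 nM minus that at 3.75 nM. Among chaperone, translation and proteasome genes it was −5.52 for hsp70.3, −5.50 for hsp90aa1.1, −5.07 for HSP90AA1, −4.98 for HSPA2, −1.33 for TOMM22, −1.29 for EIF4G2, −1.25 for EIF4G1 and −0.89 for PSMD12. Among metabolic genes it was −6.39 for ACSBG2, −4.07 for HKDC1, −4.03 for FASN, −2.78 for PGD, −2.26 for mid1ip1l, −1.95 for DLAT, 2.49 for PDK2, 1.65 for cpt1ab and 3.68 for IMPDH1. Among redox, heme and oxygen-linked genes it was −3.81 for prdx1, −2.95 for EGLN1, −2.25 for CPOX, −2.07 for cycsb, −1.94 for GSR and −0.72 for HIF1A. For the islet hormones SST and GCG it was −8.53 and −7.90, and both rested on fish 198 at 37.5 nM, at 56.3 and 16.1 CPM against 0.835 CPM or less in fish 199 to 202. Without fish 198 they were −3.81 and −4.54 and did not pass (adjusted p = 0.133 and 0.138). Of the 18 fits with a fish left out, SST passed in 9 and GCG in 7.

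Positive interactions stood beside lower levels in the 163 series. In autophagy genes they were 4.89 for CALCOCO1, 4.17 for ulk1a, 3.63 for ULK1, 1.92 for ATG2A and 1.91 for MCOLN1. In growth arrest and insulin-linked genes they were 4.16 for igfbp1b, 4.13 for bbc3, 3.77 for IGFBP1, 3.49 for PDPK1 and 1.93 for IGFALS. The others were 7.13 for ADGRL2, 3.74 for SNX20, 3.45 for znrf2a, 3.21 for tsnare1, 2.92 for TCP11L2, 2.18 for RCL1 and 1.46 for DDX21. Adjusted p-values ran from 0.000165 (HSP90AA1) to 0.0470 (GCG).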

How the results depend on the processing

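At 3.75 nM the main test called 1885 genes. The count was 919 with no filter on low counts, 3541 with DESeq2, 4621 with voom and 3482 in the fit over all 18 fish. It was 4513 without fish 189 and 190. Without the libraries of high intestinal score (fish 166, 190 and 192), a fit with 3 fish in each set, it was 3. With the intestinal score as a covariate the count was 1604, of which 1501 were shared with the main test. With a fish left out it ran from 17 (without 166 or 167) to 3512 (without 189). DESeq2 called 2266 to 4795 with a fish left out, 1746 without fish 166, 190 and 192, and 5560 without fish 189 and 190. Genes shared with the main test had the same direction in every setting run. At 37.5 nM the main test called 5 genes, with 3 unfiltered, 1641 with DESeq2, 438 with voom and 0 to 72 with a fish left out. The interaction passed for 1089 genes, with 680 unfiltered, 2055 with DESeq2, 2859 with voom and 516 (without 167) to 2048 (without 189) with a fish left out. The cause of these changes was not tested. Of the 109 described genes, the 81 with an adjusted p below 0.05 kept their direction in every setting run, and 6 of the 81 passed in all 9 fits without a fish. The 81 leave out genes named after their values were seen, such as ldah and UBE2K. Over all 1885 called genes, 15 passed in all 9 fits. Genes called on the same fish tend to keep their direction in such fits, so kept directions are a description. Of the 42 described genes with a called interaction, 30 passed in all 18 fits without a fish and all 42 kept their direction, while ADGRL2, SST, GCG, DDX21, cpt1ab, IGFALS and HKDC1 passed in 9 or fewer. Levels under about 1 CPM rest on few reads. No paired analysis was possible because the series share no fish number.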

Other observations

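Further genes outside the groups described in full passed at 3.75 nM. The lipid droplet hydrolase gene ldah averaged 42.8 CPM in the 163 series and 10.7 CPM in the 189 series (1.90 ± 0.20, edgeR adjusted p = 0.00794), and UBE2K averaged 42.7 and 17.3 CPM (1.21 ± 0.14, adjusted p = 0.00849). The transcription factor foxp1b averaged 3.82 and 14.2 CPM (−2.0 ± 0.19, adjusted p = 0.00592), and the globin HBE1 1.67 and 12.3 CPM (−2.99 ± 0.26, adjusted p = 0.00287). The folate enzyme dhfr was at 22.5 to 26.6 CPM against 6.39 to 12.8 CPM (1.13 ± 0.21, adjusted p = 0.0188). Both rows of CYP27A1, a mitochondrial sterol hydroxylase, were lower in the 163 series, by −1.54 ± 0.40 (ENSDARG00000088013) and −1.40 ± 0.39 (ENSDARG00000069186), with adjusted p = 0.0391 and 0.0469.

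At 37.5 nM the non-muscle myosin MYH10 averaged 294 CPM in fish 173 to 177 and 89.4 CPM in fish 198 to 202 (1.69 ± 0.20, edgeR adjusted p = 0.0471), and stood at −0.52 in the 3.75 nM comparison (adjusted p = 0.292). ccdc141 averaged 39.7 and 7.02 CPM at 37.5 nM (2.47 ± 0.23, adjusted p = 0.0142) and stood at −1.62 at 3.75 nM (adjusted p = 0.0720).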
